A study of Mus musculus and Homo sapiens with 9 samples.

Results

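The genes described here are 5 caspases and 3 genes of the death receptor route, namely CASP2, CASP6, CASP8, CASP9, CASP10, FAS, FADD and CFLAR. They were chosen by symbol, with earlier results of these data known. All 8 had a row among the 56105 annotated genes of the human count table, and 7 had one among the 42462 of the mouse table, since the mouse has no Casp10. RNA-seq had been done in 9 libraries. The human libraries came from J.gamma1, a T cell acute lymphoblastic leukaemia (T-ALL) line derived from Jurkat, carrying either a control short hairpin RNA (sh-NC, 2 libraries) or one against the transcriptional cofactor IRF2BP2 (sh-IRF2BP2, 2 libraries). The mouse libraries came from CD3+ T cells taken magnetically from the spleen, 2 from Irf2bp2 knockout animals (Vav-iCre+/-;Irf2bp2 fl/fl) and 3 from controls. The labels call these controls wild type, whereas the study's text gives them as Vav-iCre-/-;Irf2bp2 fl/fl, so that both mouse groups would carry the floxed alleles. Vav-iCre acts throughout the blood lineage, so the T cells of the knockout arose in an animal whose other blood cells lacked Irf2bp2 too, and J.gamma1 is 1 cell line. The study designed hairpins against 2 regions of IRF2BP2, and which one these libraries carried is not given in the sources used here, so effects of the loss of IRF2BP2 and of a single hairpin cannot be told apart. Nothing in the labels says that replicates were separate cultures, so that p-values measure the spread between these libraries.

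Caspases are cysteine proteases that are made as inactive precursors. In the extrinsic route to apoptosis, a ligand clusters a death receptor such as FAS, the adaptor FADD binds its tail, and CASP8 and CASP10 join and activate each other there. CFLAR, also called c-FLIP, is a relative of CASP8 that enters the same complex and sets how far it is activated. In the intrinsic route CASP9 is activated by APAF1 after cytochrome c leaves the mitochondrion, CASP2 is activated on a platform of PIDD1 and CRADD, and both routes end in effector caspases such as CASP6, which cut lamins, PARP1 and other substrates. T cells use FAS to remove themselves after activation.

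The caspases of this group share the stretch of coding sequence around the catalytic cysteine, and CFLAR lacks it, which is why these stretches are shown. They were read from the principal transcript of each gene (GENCODE, hg38 for human, mm10 for mouse), and the capitals mark the codon of the cysteine.
CASP8: tttattcaggctTGTcagggggataactac
CASP10: ttcatccaggccTGCcaaggtgaagagata
CASP9: ttcatccaggccTGTggtggggagcagaaa
CASP2: ttcatccaggccTGCcgtggagatgagact
CASP6: atcattcaggcaTGTcggggaaaccagcac
mouse Casp8: ttcattcaggctTGCcaaggaagtaacttc
The cysteine is residue 360 of 479 in CASP8, 401 of 522 in CASP10, 287 of 416 in CASP9, 320 of 452 in CASP2 and 163 of 293 in CASP6. In mouse Casp8 it is residue 362 of 480. The search was for glutamine, alanine, cysteine, any residue and glycine in a row, and no match was found in FAS, FADD or CFLAR, human or mouse.

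The total counts per library lay between 16668577 and 37177523, with control replicate 3 of the mouse the shallowest. IRF2BP2 had 204, 199, 79.0 and 93.8 CPM (counts scaled by library size and composition to a common total) in sh-NC 1, sh-NC 2, sh-IRF2BP2 1 and sh-IRF2BP2 2, a log2 fold change of -1.22 with an SE of 0.13 (adjusted p = 0.00229, edgeR). Mouse Irf2bp2 had 119.6 ± 7.60 CPM (SD, n = 3) in the controls and 0 counts in both knockout libraries, at least 1415-fold lower against the limit of 3 counts per library that a count of 0 allows. In J.gamma1 the T cell genes CD3D, CD3E, CD3G and LCK were present in each library, and CD2 and PTCRA were low. Of the 10 T cell markers 1 was called higher, CD28 (log2 fold change 0.81), and 2 lower, CD3D (-0.79) and PTCRA (-2.51). The 10 summed to 1543 to 1725 CPM with sh-NC and 1481 to 1596 CPM with sh-IRF2BP2. MS4A1, LYZ and ALAS2 were at 0. Some markers of other cell types were nevertheless present. CD79A, a B cell gene, had 45.6 and 60.5 CPM with sh-NC and 11.2 and 14.0 CPM with sh-IRF2BP2 (log2 fold change -2.07), and HBA2 (2.29) and PRDM1 (1.38) were called higher from levels under 2 CPM. The summed level was 50.17 to 64.91 CPM with sh-NC and 15.56 to 18.05 CPM with sh-IRF2BP2 for the 5 B cell markers, of which 1 was called lower. For the 7 erythroid markers, of which 1 was called higher, it was 8.19 to 12.2 and 11.0 to 14.6 CPM. The 4 plasma cell markers, of which 1 was called higher, summed to 2.16 to 2.42 and 5.15 to 5.39 CPM. The 7 myeloid markers, none of them called, summed to 15.5 to 21.4 and 15.9 to 17.4 CPM. Their part in the values of the caspase genes was not tested. In the mouse libraries all 10 T cell markers were present.

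In J.gamma1 cells, 2 of the 8 genes passed the test (an adjusted p below 0.05, adjusted over the 15819 genes tested). CASP8, the initiator caspase of the death receptors, rose about 2.03-fold on knockdown of IRF2BP2, and CASP6, an effector caspase, fell to 0.69 of the control level. The receptor FAS, its adaptor FADD, the regulator CFLAR and the initiators CASP2, CASP9 and CASP10 did not pass. Of all genes tested, 5.83% were called higher and 5.32% lower, so with 8 members a single call in each direction is not, by its count, a result about the group. The values of the 2 genes are therefore given one by one.

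**Figure D1:**
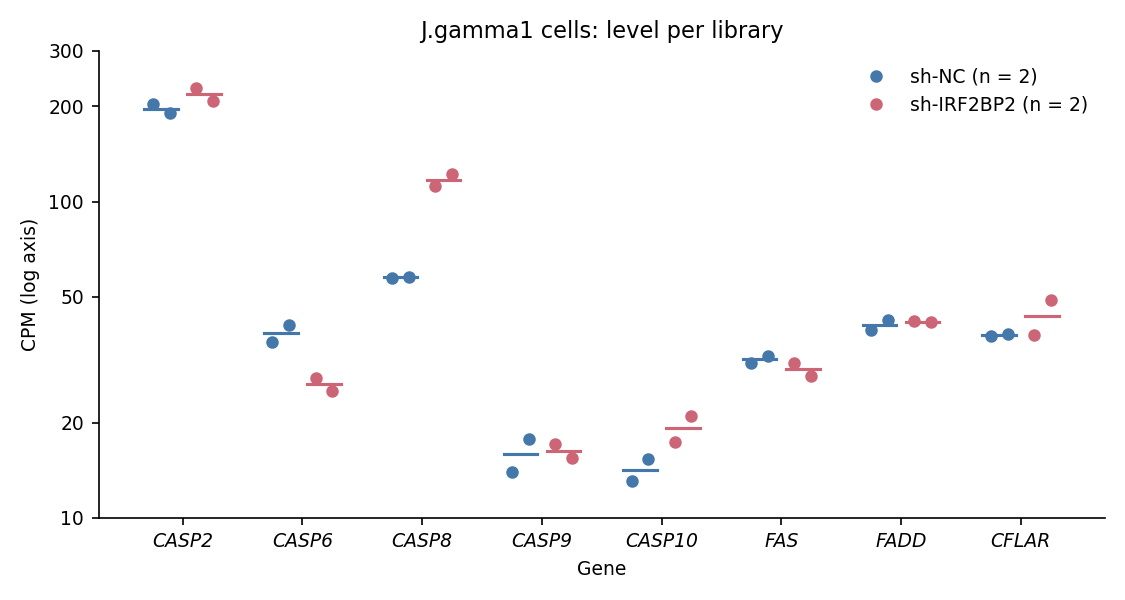
Level of the 8 genes in J.gamma1 cells, in CPM on a log axis. Each point is 1 library (blue, sh-NC; red, sh-IRF2BP2; 2 each) and each bar is a group mean. The red points of CASP8 lie at 112 and 122 CPM, above the blue points at 57.5 and 57.9, and those of CASP6 lie below theirs.

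CASP8 (ENSG00000064012; hg38 chromosome 2, 201233443 to 201361836, plus strand) stood at 57.5 CPM in sh-NC 1 and 57.9 CPM in sh-NC 2, against 112 CPM in sh-IRF2BP2 1 and 122 CPM in sh-IRF2BP2 2. Both knockdown libraries thus stood well above both controls, which differed from each other by less than 1 CPM. The means were 57.7 ± 0.274 CPM (SD, n = 2) and 117 ± 7.35 CPM (SD, n = 2). The log2 fold change was 1.02, with an SE of 0.12 and a 95% interval of 0.76 to 1.29 (adjusted p = 0.00275). In size it exceeded 91.8% of the log2 fold changes of all genes tested. The call held when any 1 library was left out, with log2 fold changes of 0.96 to 1.06. The annotated exons of CASP8 share 343 bases with the long non-coding RNA ENSG00000289698 on the same strand, which has no row of its own in the table, so reads of the 2 could not be told apart.

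CASP6 (ENSG00000138794; hg38 chromosome 4, 109688622 to 109703583, minus strand) stood at 36.0 CPM in sh-NC 1 and 40.6 CPM in sh-NC 2. With the knockdown it stood at 27.6 and 25.3 CPM. The knockdown libraries lay below both controls without overlap. The log2 fold change was -0.54, with an SE of 0.14 and a 95% interval of -0.85 to -0.22 (adjusted p = 0.0462), close to the threshold. The call was lost without sh-NC 2 (adjusted p = 0.0976), without sh-IRF2BP2 1 (adjusted p = 0.112) and without sh-IRF2BP2 2 (adjusted p = 0.218), while the log2 fold change stayed between -0.63 and -0.45. Annotated exons of MCUB on the opposite strand cover 98 bases of CASP6, and use of the strand in counting is not given in the sources used here.

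CASP10 (ENSG00000003400; hg38 chromosome 2, 201182872 to 201229428, plus strand), the closest relative of CASP8 and its neighbour on the chromosome, was the next largest in size. It had 13.1 and 15.3 CPM with sh-NC and 17.4 and 21.0 CPM with sh-IRF2BP2. The groups did not overlap, but the log2 fold change of 0.43 (95% interval 0.01 to 0.85) did not pass the test over all genes (adjusted p = 0.168). CASP2 (ENSG00000106144; hg38 chromosome 7, 143288215 to 143307696) also had both knockdown libraries above both controls, at 229 and 208 CPM against 203 and 190.4 CPM, with a log2 fold change of 0.15 (95% interval -0.13 to 0.43, adjusted p = 0.471). In all, 4 of the 8 genes had groups that did not overlap, against 58.3% of all genes tested, so separation of 2 libraries from 2 is common in these data.

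The receptor, its adaptor and the regulator lay close to their control levels. FAS (ENSG00000026103; hg38 chromosome 10, 88953813 to 89029605) had 30.9 and 32.6 CPM with sh-NC and 31.0 and 28.1 CPM with sh-IRF2BP2, and the groups overlapped. Its log2 fold change was -0.10, and the 95% interval of -0.41 to 0.21 leaves room for a change of modest size either way. FADD (ENSG00000168040; hg38 chromosome 11, 70203296 to 70207390) had 39.3 and 42.3 CPM against 41.9 and 41.6 CPM, a log2 fold change of 0.03 (95% interval -0.25 to 0.32). This was the smallest log2 fold change of the 8. CFLAR (ENSG00000003402; hg38 chromosome 2, 201116154 to 201176687) had 37.7 and 38.1 CPM against 37.9 and 49.0 CPM, so that sh-IRF2BP2 2 alone stood above the controls and the log2 fold change of 0.20 (95% interval -0.15 to 0.55) rested on it. CASP9 (ENSG00000132906; hg38 chromosome 1, 15490832 to 15526534), the caspase of the intrinsic route, had 14.0 and 17.8 CPM against 17.1 and 15.5 CPM, with a log2 fold change of 0.04 (95% interval -0.39 to 0.47). FAS shares annotated exon bases with ACTA2 and STAMBPL1, CFLAR with CFLAR-AS1 and the pseudogene IMPDH1P10, CASP9 with CELA2B, and FADD shares 1011 bases with the non-coding ENSG00000254721 on the opposite strand, so some of their reads may belong to those genes.

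Compared between genes per length of transcript, CASP2 was the highest of the group in sh-NC cells and CASP8 stood in the middle. The levels, in CPM per kilobase of merged exons, were 24.6 ± 1.15 for CASP2, 23.9 ± 1.26 for FADD and 19.7 ± 1.68 for CASP6 (SD, n = 2 each). CASP2 and FADD overlapped, and CASP6 lay below both. CASP8 followed with 7.97 CPM per kilobase and CASP9 with 3.01, and CFLAR with 1.68, CASP10 with 1.59 and FAS with 1.08 were the lowest, of which CFLAR and CASP10 overlapped. The order depended on the length used for genes with long rare exons. With 1 principal transcript per gene, a choice made after the data were seen, CASP8 had 21.7 CPM per kilobase, near FADD with 23.9 and CASP6 with 23.5, and FAS rose in the order to 8.58, above CASP9 with 5.66. On that scale CASP8 stood at 44.1 ± 2.76 CPM per kilobase in the sh-IRF2BP2 libraries, second to CASP2 with 53.4 ± 3.69.

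CFLAR, CASP10 and CASP8 lie side by side on human chromosome 2, so the protein-coding genes within 300 kb of that cluster were compared, a window chosen after the values were seen. Of 14 tested genes there, 2 were past the test, both higher, namely CASP8 and TRAK2, a trafficking protein of mitochondria. Over all genes tested, 5.83% were called higher and 5.32% lower, and CASP8 is a gene around which the window was drawn. TRAK2 had 63.7 and 49.7 CPM with sh-NC and 135 and 114 CPM with sh-IRF2BP2, with a log2 fold change of 1.14 and an SE of 0.16 (adjusted p = 0.0053). It lies on the minus strand and starts 218 kb beyond the start of CASP8. Its span of 201377207 to 201451500 begins past the end of CASP8 at 201361836, so the 2 genes point towards each other. STRADB and FLACC1 have their starts between those of CASP8 and TRAK2. STRADB, whose span overlaps that of TRAK2, had a log2 fold change of 0.34 (adjusted p = 0.187). FLACC1 lies within the span of CASP8 on the opposite strand. At under 1 CPM on average in each group, it had a log2 fold change of 1.23 with an SE of 0.57 (adjusted p = 0.208). On the other side the values were 0.43 for CASP10, 0.20 for CFLAR, -0.20 for NDUFB3 and 0.28 for HYCC2, none past the test. The log2 fold changes thus differed from gene to gene across the window, with TMEM237 at 0.00 on the far side of TRAK2.

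**Figure D2:**
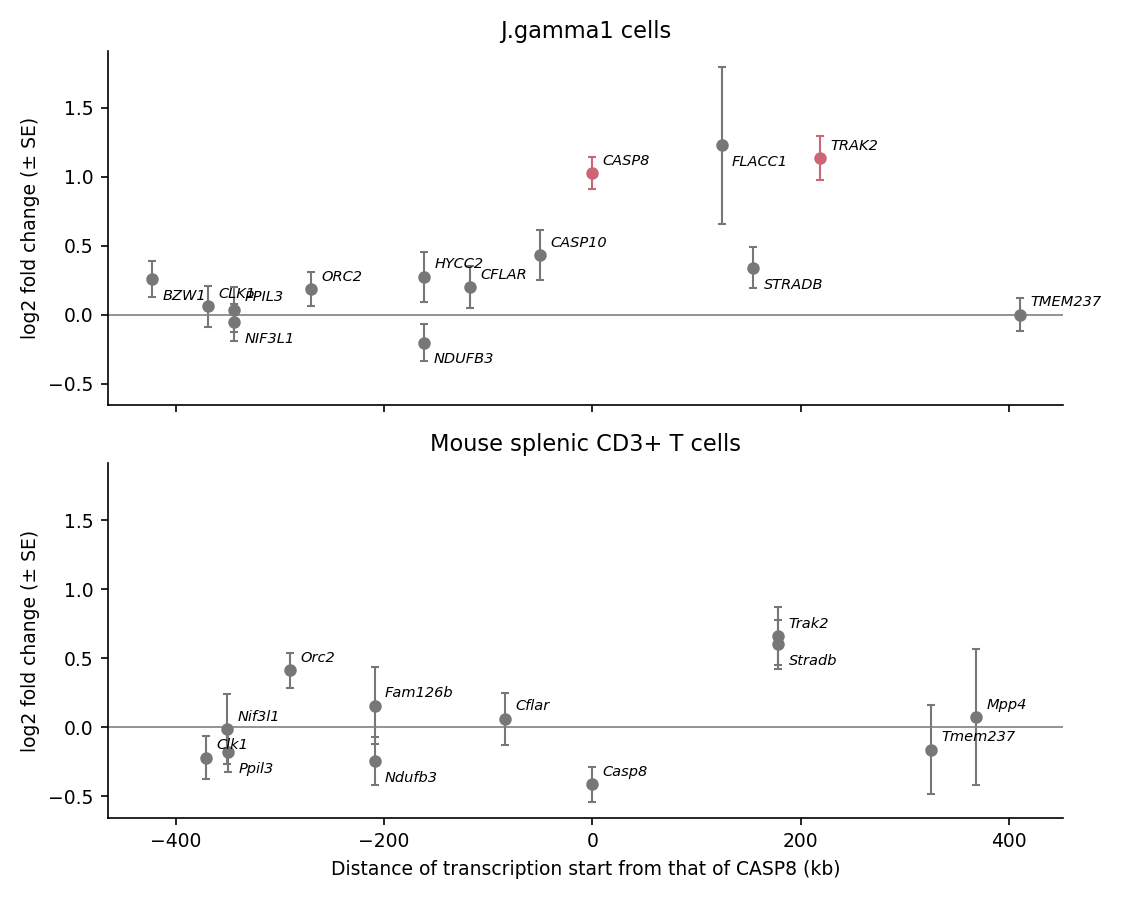
log2 fold change (± SE) of the tested protein-coding genes around the CFLAR, CASP10 and CASP8 cluster, against the distance in kilobases from the start of CASP8 to that of each gene, in J.gamma1 cells (top) and mouse T cells (bottom). Red marks an adjusted p under 0.05. CASP8 at 1.02 and TRAK2 at 1.14 are the red points of the top panel, and the bottom panel has none.

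The 2 genes whose profile over the 4 libraries was most like that of CASP8, by the root mean square distance between centred log2 CPM among 9409 protein-coding genes of at least 10 mean CPM, were TMED4 (distance 0.020) and ATG14 (distance 0.023). TMED4 had 54.2 and 53.6 CPM with sh-NC and 105 and 112 CPM with sh-IRF2BP2. For CASP6 the nearest were ACTR3B and TKFC, both at a distance of 0.012. With 4 libraries many genes share a profile, and these 4 are named by that rule only.

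Genes that hold the word GGTCTAA in the 3' UTR were lower as a class in these J.gamma1 libraries, so the members were searched for it on the sense strand of the 3' UTR. CASP6, the member that fell, holds it 1 time, at position 396 of its 702 base 3' UTR. CFLAR, which was not lower, holds it too, in a 3' UTR of 12714 bases. A site of each is shown with the word in capitals, read from the principal transcripts (GENCODE, hg38).
CASP6: gaagcattatGGTCTAAtgattcaaat
CFLAR: taccctgtatGGTCTAAaaggtccaga
CASP10 holds the shorter word GGTCTA, of which GGTCTAA is an extension, and CASP2, CASP8, CASP9, FAS and FADD hold neither. Of the tested genes with a 3' UTR, 639 held GGTCTAA, and 19.7% of them were called lower. The share was 12.7% of the 1364 genes with GGTCTA alone and 4.68% of the 10623 with neither. The word was searched because of these same libraries, and the classes were not matched for 3' UTR length. The part of the word in the level of CASP6 was not tested.

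The other genes of the pathway were taken from 6 lists, of which 55 genes are described here and 46 passed the filter on low counts in J.gamma1 cells. Of these 46, 4 rose, 2 fell and 40 did not pass, and their median log2 fold change was 0.04, against 0.01 over all genes tested. With 5.83% of all genes called higher and 5.32% lower, these counts are near the background and are not a result about the lists. The inflammatory caspases were scarcely present, with CASP4 at 1.82 to 2.90 CPM, CASP1 with 2 counts in 1 library and 0 in the others, and CASP5 at 0 in each library. CASP12 and CASP14 were also at 0.

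None of the 8 tested death ligands and other receptors and none of the 9 tested adaptors passed the test by edgeR. Over all genes, 5.83% were called higher and 5.32% lower. FASLG, the ligand of FAS, had 5, 2, 4 and 8 counts in the 4 libraries and was too low to test. TNFRSF1A, the main TNF receptor, had 71.4 and 79.0 CPM against 94.3 and 97.2 CPM (log2 fold change 0.35, adjusted p = 0.0963). TNFRSF10B, a receptor of TRAIL, had 58.1 and 54.5 CPM against 65.8 and 71.9 CPM (adjusted p = 0.16). TNFSF10, which encodes TRAIL, had 8.26 and 10.4 CPM against 6.04 and 6.92 CPM (log2 fold change -0.53, adjusted p = 0.179). Of the 8 tested genes of this list 2 lay apart higher and 2 lower, against 58.3% of all genes tested for both directions together, and none passed the test. PIDD1, a part of the platform of CASP2, had the largest value of the adaptors in size, at -0.57 (adjusted p = 0.0652).

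Of the 10 tested caspase inhibitors and antagonists, 2 rose and none fell, against 5.83% called higher and 5.32% lower over all genes, too few for a statement about the list. XIAP, which binds and blocks effector caspases and CASP9, had 80.3 and 74.6 CPM with sh-NC and 117 and 119.6 CPM after knockdown (log2 fold change 0.61, SE 0.11, adjusted p = 0.0152). BIRC3, a ubiquitin ligase of the TNF receptor complex, rose from 35.4 and 31.6 CPM to 51.4 and 61.3 CPM (log2 fold change 0.75, adjusted p = 0.0163). Of the necroptosis branch TNFAIP3, an NF-kB feedback gene also called A20, rose by 0.50 on the log2 scale (adjusted p = 0.034), and the other 3 tested did not pass.

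Among the 14 caspase substrates 1 rose and 2 fell, near the same all-gene shares of 5.83% and 5.32%. GSDME, a gasdermin that forms pores once a caspase has cut it, had the largest change of the lists, from 13.2 and 15.2 CPM to 5.94 and 6.45 CPM (log2 fold change -1.19, SE 0.20, adjusted p = 0.0107). ACIN1, a nuclear substrate, fell by 0.48 on the log2 scale (adjusted p = 0.0444), and SPTAN1, a spectrin, rose by 0.54 (adjusted p = 0.0398). PARP1 had 538 and 483 CPM against 449 and 414 CPM, with a log2 fold change of -0.24 that did not pass (adjusted p = 0.273). The log2 fold change of GSDME ran from -1.30 to -1.09 over the left-out libraries. Each such fit has 1 library in a group, and calls over all genes were fewer without either sh-IRF2BP2 library. A call lost there is thus not particular to the genes named here. Of the 9 called genes named for J.gamma1, which include CASP8, CASP6 and TRAK2, 5 lost the call without sh-IRF2BP2 1, 6 without sh-IRF2BP2 2 and 1 without sh-NC 2.

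**Figure D3:**
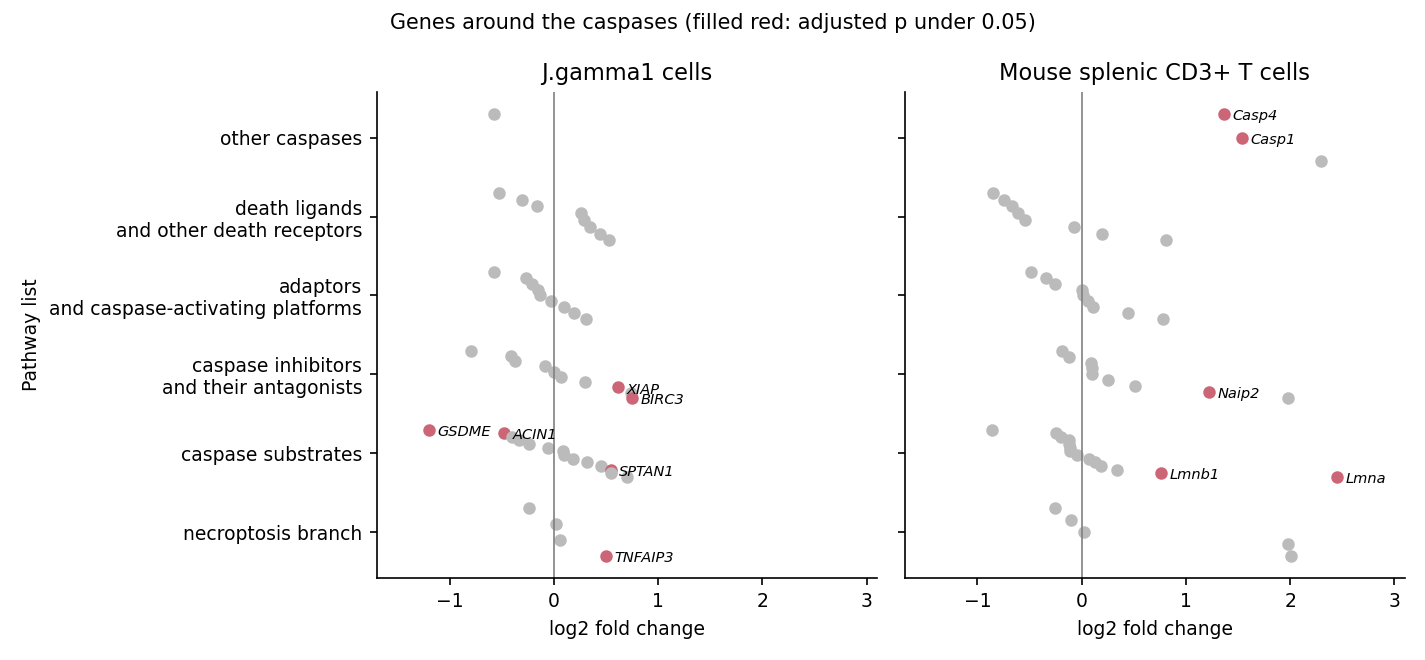
log2 fold change of the tested genes of the 6 pathway lists, by list, in J.gamma1 cells (left) and mouse T cells (right). Each point is 1 gene, and red points with names have an adjusted p under 0.05. On the left 4 red points lie above 0 and 2 below, and on the right all 5 lie above 0.

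In the mouse T cells, none of the 7 genes passed the test by edgeR over 15350 genes, of which 2.68% were called higher and 0.15% lower. At an unadjusted p under 0.05 there was 1, Casp8, against 2488 of the 15350 genes tested. DESeq2 called Casp8 lower (adjusted p = 0.0467), with 1.86% of all genes called lower by that tool. Groups that did not overlap were seen for 3 of the 7, Casp6 and Casp8 lower and Casp9 higher, against 36.0% of all genes tested. The extracts were bulk RNA, so fewer cells of a type and less RNA per cell cannot be told apart.

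**Figure D4:**
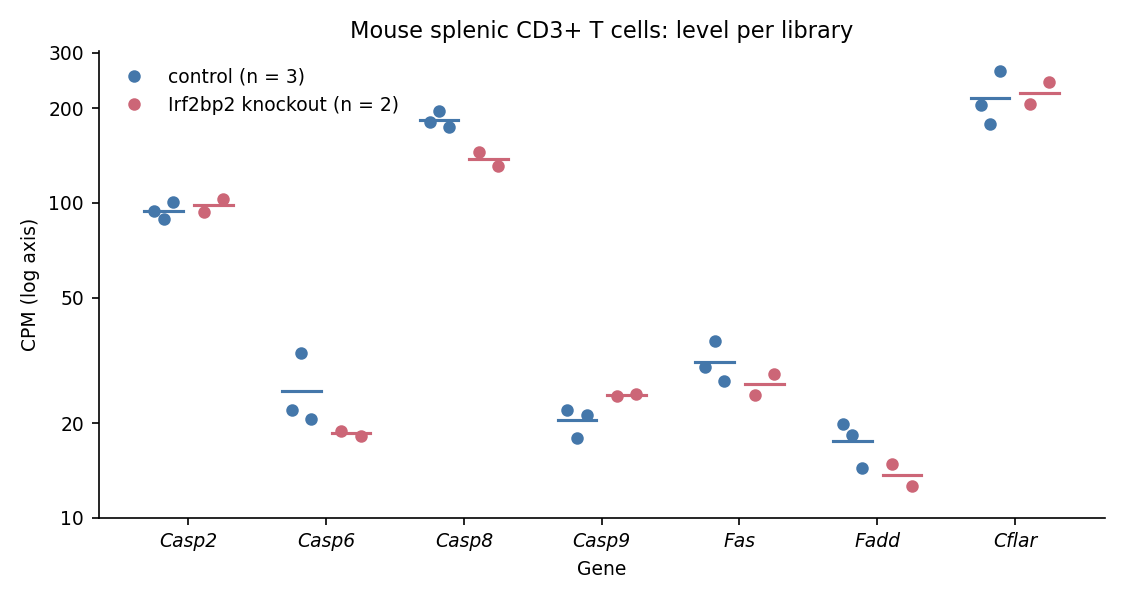
Level of the 7 genes in mouse splenic CD3+ T cells, in CPM on a log axis. Each point is 1 library (blue, control, 3; red, Irf2bp2 knockout, 2) and each bar is a group mean. For Casp8 the red points at 145 and 131 CPM lie below the blue points, which span 174 to 195 CPM.

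Casp8 (ENSMUSG00000026029; mm10 chromosome 1, 58795374 to 58847503, plus strand) had 181, 195 and 174 CPM in the controls and 145 and 131 CPM in the knockout libraries. Both knockout libraries lay below each control. The means were 184 ± 10.7 CPM (SD, n = 3) and 138 ± 10.1 CPM (SD, n = 2), and the log2 fold change was -0.41 with an SE of 0.13 and a 95% interval of -0.71 to -0.11 (adjusted p = 0.179). The T cell markers moved by a like amount in the same libraries. Of the 10 markers 9 were lower in the knockout, with a median of -0.40 and none past the test, and their summed level was 4330 to 5175 CPM in the controls and 3594 to 3827 CPM in the knockout. Their part in the level of Casp8 was not tested. Around the mouse cluster of Cflar and Casp8, none of 12 tested genes within 300 kb passed the test, against 2.68% called higher and 0.15% lower over all genes. Trak2 had a log2 fold change of 0.66 (adjusted p = 0.187) with both knockout libraries above every control. Groups that did not overlap were seen for 36.0% of all genes tested.

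Casp6 (ENSMUSG00000027997; mm10 chromosome 3, 129901425 to 129914103) had 22.0, 33.3 and 20.6 CPM in the controls and 18.8 and 18.3 CPM in the knockout. Control replicate 2 stood above the other controls, and the log2 fold change of -0.45 had a wide 95% interval of -1.03 to 0.12 (adjusted p = 0.436). Without that library it was -0.19. Casp9 (ENSMUSG00000028914; mm10 chromosome 4, 141793612 to 141815976) had 22.1, 17.9 and 21.2 CPM against 24.4 and 24.6 CPM, with a log2 fold change of 0.27 (95% interval -0.13 to 0.66). Casp2 (ENSMUSG00000029863; mm10 chromosome 6, 42264985 to 42282508) overlapped between the groups, at 93.9, 88.9 and 101 CPM against 93.8 and 103 CPM.

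The receptor, adaptor and regulator genes were spread across the mouse groups. Fas (ENSMUSG00000024778; mm10 chromosome 19, 34290666 to 34327772) had 30.1, 36.3 and 27.2 CPM in the controls and 24.5 and 28.7 CPM in the knockout, a log2 fold change of -0.23 (95% interval -0.66 to 0.19). Fadd (ENSMUSG00000031077; mm10 chromosome 7, 144577318 to 144582463) had 19.8, 18.3 and 14.4 CPM against 14.8 and 12.6 CPM, a log2 fold change of -0.35 (95% interval -0.85 to 0.15). For both the lowest control overlapped with the knockout. Cflar (ENSMUSG00000026031; mm10 chromosome 1, 58711508 to 58758884) had 204, 178 and 261 CPM against 205 and 243 CPM, so that its control libraries alone spanned the whole range. Fadd shares 239 exon bases with the antisense gene Faddos.

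Per kilobase of merged exons, Casp8 was the highest of the 7 in control mouse T cells, with 63.5 ± 3.69 CPM per kilobase (SD, n = 3). Cflar with 16.9 ± 3.36, Fas with 15.1 ± 2.25 and Casp2 with 13.4 ± 0.839 overlapped in that order, each with the next. Casp6 with 4.54, Fadd with 4.48 and Casp9 with 3.92 were the lowest and also overlapped. With 1 principal transcript per gene, Cflar (67.9 ± 13.4) overlapped with Casp8 (71.0 ± 4.13), Casp2 (26.8 ± 1.68) stood above Fas (21.1 ± 3.14), and Casp6 (17.4 ± 4.77) stood well above Casp9 (5.23 ± 0.568) and Fadd (4.48 ± 0.714). The order differed from that in J.gamma1 cells, where CASP2 came before CASP8, and the 2 tables were normalized separately, so no level is compared across them.

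Of the other pathway genes in the mouse, 48 of 50 were tested, and 5 rose and none fell by edgeR, against 2.68% higher and 0.15% lower over all genes. DESeq2 called 10 higher and 3 lower, with 6.1% of all genes higher and 1.86% lower by that tool. Among the other caspases, the inflammatory caspase gene Casp1 rose from 16.5, 12.7 and 14.0 CPM to 40.5 and 43.1 CPM, a log2 fold change of 1.54 with an SE of 0.17 (adjusted p = 0.01). Casp4 rose from 12.3, 8.49 and 7.70 CPM to 23.5 and 25.7 CPM (adjusted p = 0.0397). In both the knockout libraries stood well above every control, whereas none of the 7 members passed the test.

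The substrate gene Lmna, a nuclear lamin, had 5.24, 6.89 and 6.82 CPM in the controls and 32.5 and 36.5 CPM in the knockout, the largest called change of the lists (log2 fold change 2.45, SE 0.20, adjusted p = 0.0069). Lmnb1 rose by 0.76 on the log2 scale (adjusted p = 0.0493). Naip2, an inflammasome sensor with near-identical relatives in its gene cluster, rose by 1.23 (adjusted p = 0.0195). Parp1 had a log2 fold change of 0.19 and Fasl, the ligand of Fas, one of 0.81, from 10.7, 9.35 and 7.13 CPM to 14.5 and 17.3 CPM (adjusted p = 0.164). Tnfaip3 had 125 CPM in knockout replicate 1 and 841 CPM in knockout replicate 2, against 89.5, 71.9 and 200 CPM in the controls, so the 2 knockout libraries did not go together there.

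The erythroid markers differed between the groups in the same direction as the 5 called genes. The summed level of 8 markers was 581 to 2237 CPM in the controls and 4228 to 5992 CPM in the knockout. All 8 were higher there, 2 of them past the test, and Slc4a1, the anion exchanger of the red cell membrane, had a log2 fold change of 3.68 (adjusted p = 0.0175), with no marker at 0. The 4 plasma cell markers were also higher, 1 of them past the test. Their sums overlapped, at 342 to 1079 CPM in the controls and 1063 to 1394 CPM in the knockout. All 5 B cell markers were lower, none past the test, with sums of 25.5 to 216 CPM in the controls and 24.2 to 77.0 CPM in the knockout. Of the 7 myeloid markers 1 was higher and none passed, with sums of 66.8 to 459 and 136 to 228 CPM. Control replicate 2, which stood out for Casp6, had the highest sum of both lists. Their part in the level of Casp6 was not tested. The part of these other cell types in the values of Casp1, Casp4, Lmna, Lmnb1 and Naip2 was not tested. Over all genes, 412 higher and 23 lower calls became 6 and 1 without control replicate 1, and calls were also far fewer without either knockout library. A call that these 5 genes lost in those fits is thus not particular to them. Calls over all genes did not collapse without control replicate 2 (594 higher, 65 lower) or control replicate 3 (391 and 51). All 5 calls were lost without control replicate 1 and without knockout replicate 2, 4 without knockout replicate 1, 2 without control replicate 3 and 1 without control replicate 2.

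**Figure D5:**
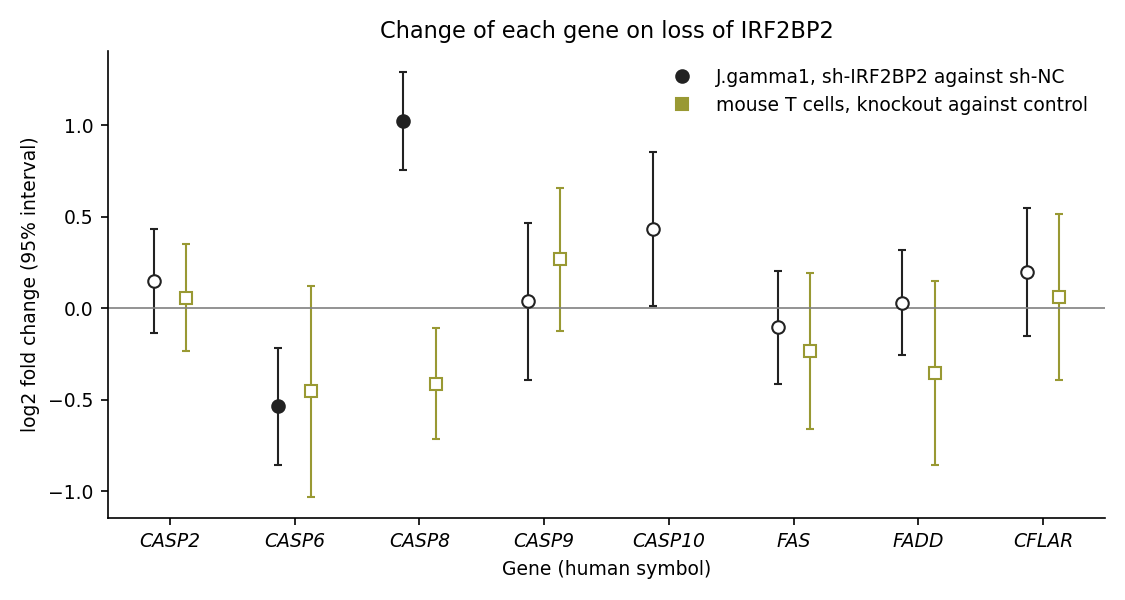
log2 fold change with its 95% interval for each gene, in J.gamma1 cells (circles, sh-IRF2BP2 against sh-NC) and mouse T cells (squares, knockout against control). Filled symbols have an adjusted p under 0.05. CASP8 lies at 1.02 in J.gamma1 cells and at -0.41 in mouse T cells, and the other pairs have intervals that overlap.

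Set side by side, CASP8 had a log2 fold change of 1.02 in J.gamma1 cells and -0.41 in mouse T cells, of which the second did not pass the test (adjusted p = 0.179). The groups did not overlap in either system, as for 58.3% and 36.0% of all genes, and the mouse T cell markers had a median of -0.40 in the same libraries. The difference was not tested. CASP6 had negative values in both, -0.54 and -0.45, of which the first passed the test. For CASP2, CASP9, FAS, FADD and CFLAR the 95% interval covered 0 in both. The systems differ in species, in malignant against normal cells, and in partial against complete loss of the transcript, and a difference between them cannot be told apart from any of these.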

How the data were processed

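RNA-seq of 4 J.gamma1 and 5 mouse CD3+ T cell libraries was analysed. The authors aligned paired reads with HISAT2 2.2.0 to hg38 (human) and mm10 (mouse) and used StringTie, per the labels. They deposited whole-number counts per Ensembl gene and library, not normalized or pooled. How StringTie coverage became counts, and whether strand was used, is not given in the sources used here.

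Rows in GENCODE 44 or M21 were kept (98.0% and 99.8% of counts). In edgeR 4.0.16 (R 4.3.3), low genes were removed by filterByExpr, library sizes were scaled by TMM, and each table was fitted with glmQLFit and glmQLFTest on the condition alone. P-values were adjusted by Benjamini-Hochberg over all tested genes. Alternatives were DESeq2 1.42.0, other scalings, filters and thresholds, counts divided by 2, all rows, a replicate block and each library left out. The fits were tested on simulated counts. Python 3.11.15 read transcript sequences.

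The members and lists were chosen with earlier results of these data known. Named genes were all members, PARP1, FASLG and IRF2BP2, up to 3 called genes per list with the largest change, and the 2 nearest profiles per called member. TRAK2, its neighbours, TNFRSF1A, TNFRSF10B, TNFSF10, PIDD1, CASP4, the marker genes, the other caspases at or near 0 and mouse Tnfaip3 were chosen after their values were seen. A few listed genes and 1 site are left unreported and out of all list counts. Intervals and floors cover counting error or the spread between libraries only.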

Additional observations from a re-analysis of the deposited data

Results flagged for a closer look

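CASP8 and Casp8 had log2 fold changes of opposite sign without overlap of the groups. In J.gamma1 cells every sh-IRF2BP2 library was above every sh-NC library, with a log2 fold change of 1.02. In mouse T cells every knockout library was below every control, with a log2 fold change of -0.41 that did not pass the test (adjusted p = 0.179). Groups that did not overlap were seen for 36.0% of all mouse genes, and the T cell markers had a median of -0.40 in the same libraries. The difference between the 2 systems was not tested, since they are separate tables from separate species. No group had the 4 libraries that a check for a single distant library needs.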

How the results depend on the processing

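CASP8 stayed past the test under each alternative run, with log2 fold changes of 0.96 to 1.06. CASP6 lost its call with at least 1 count in any library (adjusted p = 0.0973) and with all deposited rows (adjusted p = 0.0526), which left 0 members called lower. At a fold threshold of 1 the count was also 0, and over the left-out libraries it ran from 0 to 1. The 4 higher pathway genes of J.gamma1 became 0 with at least 1 count in any library and 0 at a fold threshold of 1, with 0 to 7 over the left-out libraries. The 2 lower ones became 4 with upper-quartile scaling, 5 with DESeq2, 1 with at least 1 count in any library, 4 with at least 10 counts in every library, 4 with counts divided by 2, 1 with all rows and 1 at fold thresholds of 0.5 and 1, with 1 to 4 over the left-out libraries. In the mouse DESeq2 gave 1 lower member instead of 0, 10 higher pathway genes instead of 5 and 3 lower instead of 0, and the left-out libraries gave 0 to 5 higher and 0 to 1 lower. Calls over all genes moved as well. In J.gamma1 the 923 higher and 841 lower calls became 795 and 1033 with upper-quartile scaling and 1282 and 1180 with DESeq2. They became 319 and 396, over 27082 tested genes, with at least 1 count in any library. They were 1038 and 993 with at least 10 counts in every library, and 997 and 982 with counts divided by 2. With all rows they were 849 and 782. In the mouse DESeq2 gave 936 and 285 instead of 412 and 23. The cause was not tested.

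Members near 0 changed sign: with upper-quartile scaling CASP9 was at -0.019 and FADD at -0.023, and over the left-out libraries CASP9 ran from -0.13 to 0.22, FADD from -0.025 to 0.085, CFLAR from -0.00056 to 0.35, Casp2 from -0.034 to 0.10 and Cflar from -0.085 to 0.22. With the replicate number as a block, the pathway counts of J.gamma1 were 8 higher and 7 lower. Over all genes the calls were 1884 higher and 1663 lower, against 923 and 841 without the block. CASP8 was at 1.02 and CASP6 at -0.53 (adjusted p = 0.0139, edgeR). In the mouse Casp4 and Lmnb1 lost their calls, with 443 higher and 53 lower over all genes. Deviations of log2 CPM from the group mean correlated between same-numbered libraries by 0.30 in J.gamma1. In the mouse the values were 0.26 and -0.08, and control replicate 3 has no partner there. The 2 libraries of each J.gamma1 group have deviations that mirror each other, so both pairs hold the same value. With 2 pairs per table and no label that ties the numbers, it is not known whether same-numbered libraries were handled together. Levels per kilobase spanned 22.7 times from highest to lowest member in J.gamma1 and 16.2 times in the mouse, and stayed within 1.5 times of that with other lengths.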
